A study of Mus musculus with 96 samples.

Results

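The 4 adult globin genes of the mouse, Hba-a1, Hba-a2, Hbb-bs and Hbb-bt, and the erythroid heme synthesis gene Alas2 were followed in pancreatic islets and liver of mice on 2 diets. They were taken by symbol from the deposited expression table, in which each symbol stood in 1 row, so that 5 of 21990 genes are described here, of which 20155 carried values. The genes had been put together as a measure of the blood held in a tissue sample. In islets the 5 genes moved as 1 group. In liver the 4 globin genes moved as 1 group and Alas2 largely did not, so the liver values of Alas2 are described apart and the 5 genes are called by their names.

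Hemoglobin is built from α chains, encoded by Hba-a1 and Hba-a2, and β chains, encoded by Hbb-bs and Hbb-bt, each chain carrying a heme group that binds oxygen. Heme is made in a chain of enzymatic steps whose first and rate-limiting step is carried out by 5-aminolevulinate synthase, encoded by Alas2 in red cell precursors and by Alas1 in other cells, above all in hepatocytes. Mature mouse red cells have lost their nucleus but the youngest of them, the reticulocytes, still hold globin mRNA, so a tissue that is not drained of blood carries globin transcripts.

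Male C57BL/6N mice, bought at 4 weeks of age, ate either a chow diet with 13.5% fat (CD) or a high-fat diet with 60% fat (HFD), and islets and liver were taken from the same 48 animals after 4, 8, 12, 16, 20 or 24 weeks, 4 mice for each diet and week. All groups were the same strain and sex, with no transgene or drug, and the diets differed in more than fat since they were not matched for ingredients. Islets were freed by collagenase, purified on a gradient and picked by hand, whereas liver pieces were frozen directly. Whether either tissue was flushed of blood is not given in the sources used here. Poly(A) RNA of the 96 samples was sequenced, and values are FPKM, fragments per kilobase of transcript scaled to the mapped fragments of the library. Ins2 lay between 394273 and 707231 FPKM in islets and at 0 to 2467 FPKM in liver, and Alb between 16734 and 46057 FPKM in liver and 0.12 to 48.8 FPKM in islets, so that each tissue showed its own defining gene, with a trace of the other in some libraries. The table gives no read counts, and the depth of each library is unknown.

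The 2 α genes are neighbours on chromosome 11, Hba-a1 (Entrez Gene 15122) at chr11:32283672-32284486 and Hba-a2 (110257) at chr11:32296492-32297310, both on the plus strand of GRCm38. The 2 β genes lie on the minus strand of chromosome 7, Hbb-bt (101488143) at chr7:103812524-103813923. The row of Hbb-bs (100503605) spans chr7:103812524-103827928 in the table and so covers Hbb-bt as well, with 2 transcripts of which 1 is not a RefSeq model. Alas2 (11656) occupies chrX:150547417-150571255 on the plus strand, with 3 transcripts of which 1 is not a RefSeq model. The GENCODE gene Apex2 runs across Alas2 on the opposite strand and shares 311 of the 2403 exon bases of Alas2, and the microRNA gene Mir3620 shares 61. Apex2 was at 2.04 to 3.99 FPKM in islets and 2.06 to 4.80 FPKM in liver. What the overlap adds to the values of Alas2 was not tested. Whether counting used strand is not given in the sources used here.

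The paralogues are close to identical. The longest reading frames of Hba-a1 and Hba-a2 agreed at 428 of 429 bases, and 85.2% of the windows of 100 bases in the Hba-a1 frame occurred unchanged in Hba-a2. Those of Hbb-bs and Hbb-bt agreed at 443 of 444 bases, with 91.9% of such windows shared. An α and a β frame (Hba-a1 and Hbb-bs) were identical at only 60.5% of aligned bases and shared 0% of the windows. A read of that length inside a frame can thus be told apart between the α and the β pair, but often not within a pair, and the split between paralogues is uncertain in all single-gene values below.

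The last 150 bases before the annotated start of 4 of the genes show what the promoters share and where Alas2 differs. They are RefSeq sequences of GRCm38.p6, printed 5′ to 3′ on the strand of the gene, with capitals marking matches on either strand to the letters ATATAA of a TATA box, the letters CCAAT of the box of that name, the letters CACCC of the box bound by Klf1 and the letters GATAA of the site of Gata1. All 5 members had an entry in that table.
Hba-a1, chr11:32283522-32283671: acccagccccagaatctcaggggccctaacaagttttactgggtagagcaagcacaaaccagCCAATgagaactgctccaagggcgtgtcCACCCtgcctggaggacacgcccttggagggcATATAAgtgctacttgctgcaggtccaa
Hbb-bs, chr7:103827929-103828078: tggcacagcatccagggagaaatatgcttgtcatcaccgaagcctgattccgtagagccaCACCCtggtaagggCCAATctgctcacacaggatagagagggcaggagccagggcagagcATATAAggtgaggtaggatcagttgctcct
Hbb-bt, chr7:103813924-103814073: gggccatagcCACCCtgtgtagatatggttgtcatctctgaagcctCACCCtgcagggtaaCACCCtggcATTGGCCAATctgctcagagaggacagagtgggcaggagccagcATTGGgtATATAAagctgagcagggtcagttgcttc
Alas2, chrX:150547267-150547416: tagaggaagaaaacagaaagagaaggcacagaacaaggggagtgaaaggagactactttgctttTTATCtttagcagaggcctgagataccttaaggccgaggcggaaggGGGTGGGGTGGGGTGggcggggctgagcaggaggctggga

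Over the full 250 bases before the start, each of the 4 globin genes held all 4 motifs, an arrangement found in 0.466% of 32851 promoters of that length. The ATATAA match lay 28 to 31 bases before the start in every globin gene and CCAAT 75 to 91 bases before it, counting to the first base of the match in the plus orientation of the gene. Alas2 held neither ATATAA, present in 9.1% of all promoters, nor CCAAT, present in 33.8%, but it held 3 CACCC matches in a row 26 to 40 bases before its start and 1 GATAA match. CACCC occurred in 52% and GATAA in 22.6% of all promoters, so single matches of these are common, and none of them shows that a factor was bound. Hba-a2 is not printed because its 250 bases matched those of Hba-a1 at 247 of 253 aligned positions, whereas the Hbb-bs and Hbb-bt promoters matched at 182 of 258.

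In islets the globin genes were moderately expressed and Alas2 was low. Over the 48 islet libraries Hba-a1 ranged from 26.9 to 328 FPKM around a median of 73.7, Hbb-bs from 26.6 to 343, Hba-a2 from 13.1 to 157 and Hbb-bt from 3.94 to 68.4. Alas2 ranged from 0.31 to 4.25 FPKM around a median of 0.99. Per length, Hba-a1 and Hbb-bs were therefore the higher members of their pairs, and the 4 globin genes together made up 0.00737% to 0.0724% of the summed FPKM of a library.

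In liver the same genes covered a far wider range. Hba-a1 ran from 17.9 to 1908 FPKM around a median of 167, Hbb-bs from 15.8 to 1651, Hba-a2 from 8.46 to 793 and Hbb-bt from 3.27 to 353. Alas2 was high and narrow, between 20.2 and 88 FPKM around a median of 55.4. The lowest globin values of all belonged to the liver of mouse HFD614 at week 24, which also had the lowest Alas2 of any liver, and the highest to the livers of HFD318 and HFD315 at week 12. As fewer red cells in a piece of tissue and less globin RNA per red cell give the same bulk value, these cannot be told apart here.

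**Figure D1:**
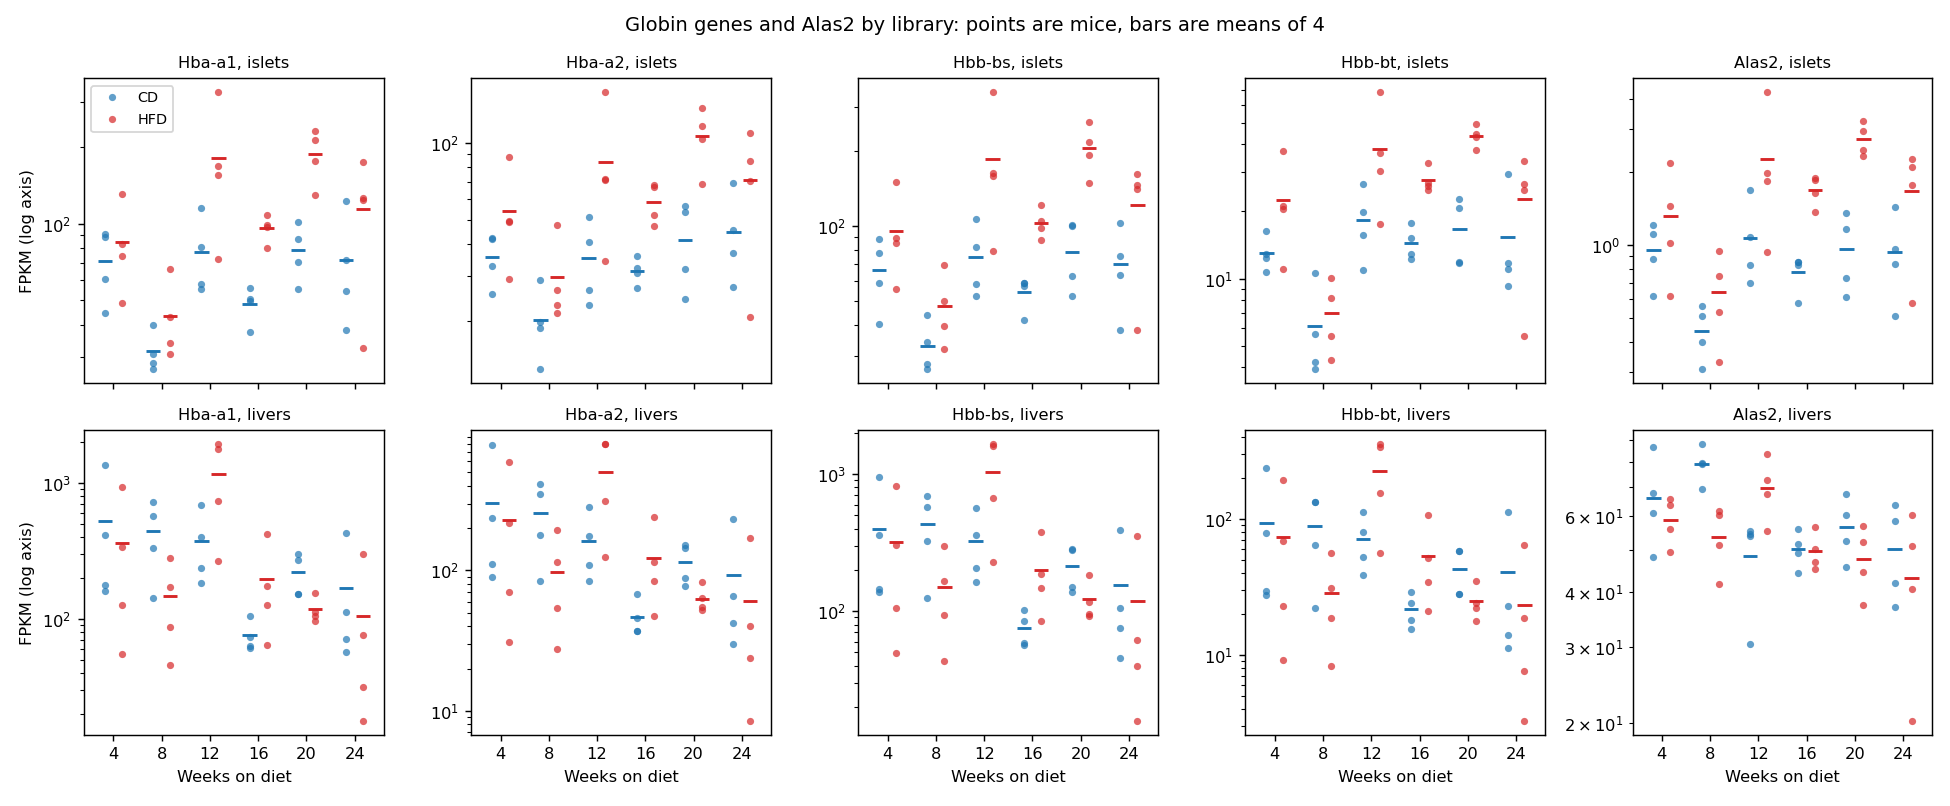
FPKM (log axis) of the 5 genes against weeks on diet, islets in the upper row and livers in the lower row, with 1 point per mouse, CD in blue and HFD in red, and bars at the means of 4 mice. In islets all HFD points lie above all CD points at weeks 16 and 20 for each gene, and in livers the Alas2 panel spans 20.2 to 88 FPKM while the Hba-a1 panel spans 17.9 to 1908 FPKM.

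The spread between mice of 1 diet and week was among the largest of all genes. On log2(FPKM + 1), the residual SD of the 4 globin genes was 0.55 to 0.58 in islets against a median of 0.14 over 12378 genes, above 98.7% to 98.9% of them. In liver it was 1.16 to 1.18 against a median of 0.18 over 10879 genes, at the 99.6th percentile. Alas2 had an SD of 0.31 in islets and 0.32 in liver, the 95.4th and the 87.6th percentile.

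The first comparison asked whether the globin genes differed between diets in islets. All 5 genes were higher on HFD over the 6 weeks as a whole and in each week the HFD mean exceeded the CD mean, by amounts that passed the test at weeks 16 and 20. Averaged over weeks in 1 limma fit of the 48 islet libraries, Hbb-bs was 0.85 ± 0.16 higher on the log2(FPKM + 1) scale (SE, adjusted p = 4.85e-05), Hba-a2 0.81 ± 0.17 (adjusted p = 0.000207), Hba-a1 0.75 ± 0.16 (adjusted p = 0.000439) and Hbb-bt 0.75 ± 0.17 (adjusted p = 0.000507). The difference of Alas2 was 0.49 ± 0.09 (adjusted p = 2.06e-05), on a scale that understates the change of a gene near 1 FPKM. In this comparison 38.6% of the 12378 genes tested were called and 16.6% were called higher. As the 5 members varied together from mouse to mouse in islets, their 5 calls are not 5 independent results.

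At week 16 the islet groups separated completely. Hba-a1 measured 50.7, 49.5, 56.1 and 37.5 FPKM in the 4 CD mice and 108, 96.7, 80.4 and 99.2 FPKM in the 4 HFD mice. Hbb-bs measured 57.4, 58.9, 58.8 and 41.8 FPKM on CD and 121, 98, 87.4 and 105 FPKM on HFD. Every HFD mouse thus lay above every CD mouse, with a gap between the groups wider than the range within either CD group. Alas2 rose in step, from 0.85, 0.83, 0.85 and 0.58 FPKM on CD to 1.89, 1.64, 1.37 and 1.86 FPKM on HFD. The ratio of the HFD to the CD mean was 1.98 for Hba-a1, 1.86 for Hba-a2, 1.89 for Hbb-bs, 1.91 for Hbb-bt and 2.17 for Alas2. In the limma fit of these 8 libraries the differences were 0.86 to 0.98 for the globin genes and 0.60 for Alas2 on the log2(FPKM + 1) scale, with adjusted p between 0.000551 and 0.00188. The 4 globin genes were called, as was Alas2, against 8.45% of genes called in all and 3.3% called higher. Groups without overlap with HFD above CD were seen in 6.64% of genes. Alas2 lay below 1 FPKM in all 4 CD mice and entered the test only through the 4 HFD mice, so its call adds no support. With all 12 islet groups in 1 fit, which uses the wider spread of the other weeks, the week 16 differences kept their size and none of the 5 was called, with adjusted p from 0.0743 to 0.214.

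At week 20 the ratios of the means were larger than at week 16, and so were the SE of the differences and the adjusted p. Hba-a1 measured 55.2, 70.8, 87.1 and 101.2 FPKM on CD and 129, 214, 230 and 175 FPKM on HFD. Hbb-bs measured 52.2, 62.7, 99.8 and 100.4 FPKM on CD and 148, 216, 260 and 192 FPKM on HFD. Alas2 measured 0.73, 0.61, 1.17 and 1.36 FPKM on CD and 2.33, 2.94, 3.23 and 2.47 FPKM on HFD. Again no HFD mouse overlapped with a CD mouse for any of the 5 genes, and HFD means were 2.38 (Hba-a1) to 2.83 (Alas2) times the CD means. The differences were 1.24 ± 0.22 for Hba-a1 (SE, limma adjusted p = 0.0221), 1.39 ± 0.25 for Hbb-bs (adjusted p = 0.0227), 1.38 ± 0.21 for Hbb-bt (adjusted p = 0.0131), 1.36 ± 0.31 for Hba-a2 (adjusted p = 0.0499) and 0.94 ± 0.13 for Alas2 (adjusted p = 0.00614). At this week 4.74% of genes were called, 1.53% were called higher and 4.84% had HFD groups wholly above CD. The call of Hba-a2 was at the threshold and was lost without any 1 of 7 of the 8 mice. Without HFD517 or HFD518 only Alas2 was still called, with globin adjusted p up to 0.148.

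At the other weeks the same direction did not pass the test in the weekly fits. With all 12 islet groups in 1 fit at least 1 call fell somewhere within these 4 weeks, not necessarily at each of them. At week 12 the differences were 0.93 to 1.17 for the globin genes and 0.58 for Alas2, similar in size to those at week 16, but the HFD mice ranged from 72.4 FPKM of Hba-a1 in HFD316 to 328 FPKM in HFD313, and adjusted p was 0.284 to 0.427. Differences at week 4 were 0.21 to 0.63, at week 8 0.21 to 0.52 and at week 24 0.43 to 0.68. At week 24 the islets of HFD614 held 32.5 FPKM of Hba-a1, the lowest of that week, while the other HFD mice held 124 to 175 FPKM. Without HFD614 the week 24 differences were 1.08 for Hba-a1, 1.01 for Hba-a2, 1.16 for Hbb-bs, 0.98 for Hbb-bt and 0.67 for Alas2, of which Alas2 was called (limma adjusted p = 0.0101). No member was called in the weekly limma fits at weeks 4, 8, 12 and 24, where 0%, 5.27%, 4.53% and 8.3% of all genes were called. At an unadjusted p under 0.05 these counts were 0, 0, 1 and 0 members, and limma without trended and robust variances also called 0. At week 4 no gene at all was called in islets, though 854 of 11569 had an unadjusted p under 0.05. Alas2 was not tested at week 8 because too few libraries reached 1 FPKM. With weeks 16 and 20 left out of the mean, a choice made after seeing the data, the 4 other weeks still gave differences of 0.55 to 0.71 for the globin genes and 0.35 for Alas2, with adjusted p from 0.00703 to 0.0443.

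A change of the diet difference over weeks did not pass the test in islets. The interaction of diet and week gave adjusted p of 0.35 for Alas2 and 0.59 to 0.702 for the globin genes, with 0 of 5 called against 4.25% of genes, 0 at an unadjusted p under 0.05 and 0 in limma without trended and robust variances. Levels did differ between weeks within a diet. On HFD all 5 were called for week (adjusted p 1.85e-05 to 0.00415) where 83.8% of genes were, and on CD Hba-a1 and Hbb-bt were called (adjusted p 0.0311 and 0.0183) where 77.5% of genes were. Hba-a1 had its lowest means at week 8, with 31.6 FPKM on CD and 43.5 FPKM on HFD, and its highest at week 20, with 78.6 and 187 FPKM, next to 77.3 and 181 FPKM at week 12. Weeks on diet, age and anything shared by the mice collected at 1 week cannot be told apart.

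**Figure D2:**
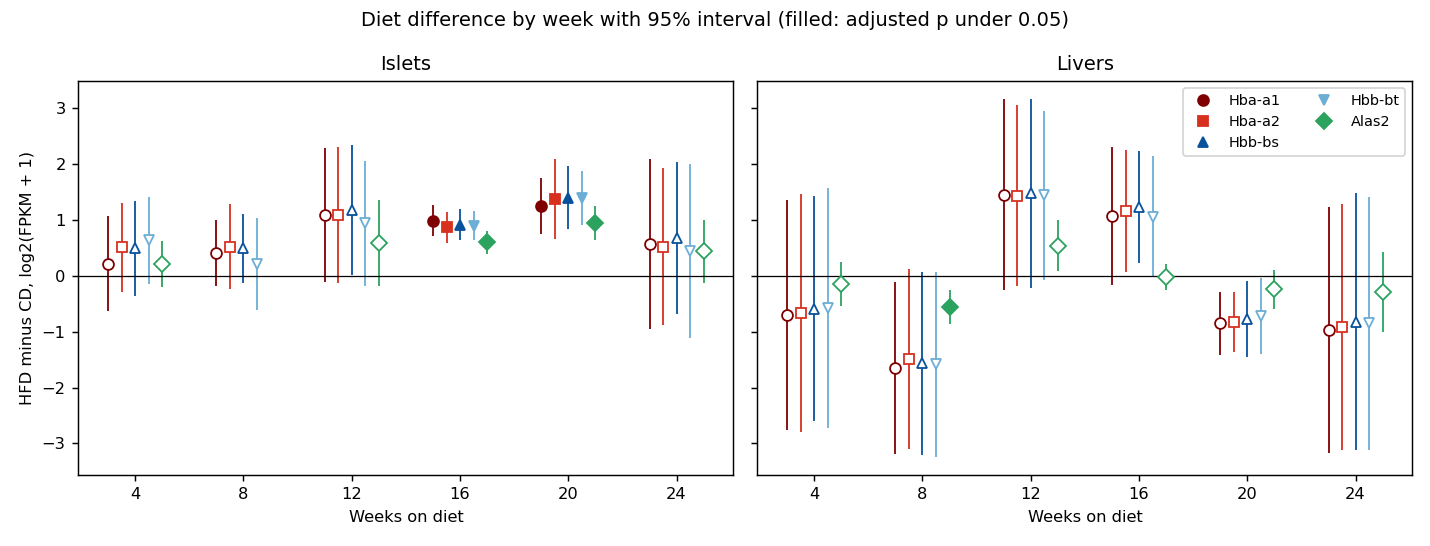
Difference HFD minus CD on log2(FPKM + 1) by week for the 5 genes in islets and livers, with 95% intervals of the weekly limma fits and filled symbols where the adjusted p was under 0.05. All islet estimates are above 0, with 10 called at weeks 16 and 20, and liver globin estimates change side from week to week with wide intervals and 1 call, of Alas2 at week 8.

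In liver no globin gene passed the test between diets. Averaged over weeks the differences were -0.18 to -0.27 for the globin genes, with intervals such as -0.94 to 0.39 for Hba-a1, and -0.12 for Alas2 (95% interval -0.30 to 0.06). Adjusted p was 0.291 to 0.703, and 0 of 5 were called where 42.6% of genes were, 0 at an unadjusted p under 0.05 and 0 in limma without trended and robust variances. Intervals this wide do not show that the diets were alike. By week, the HFD mean of Hba-a1 exceeded the CD mean at weeks 12 and 16 and fell short of it at the other 4.

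Single weeks in liver showed how far mice differed. At week 8 Hba-a1 measured 721, 329, 143 and 571 FPKM on CD and 280, 46.4, 173 and 87.7 FPKM on HFD, a difference of -1.65 ± 0.67 (SE, limma adjusted p = 0.194). At week 12 it measured 182, 682, 399 and 235 FPKM on CD and 732, 1753, 267 and 1908 FPKM on HFD, a difference of 1.45 ± 0.72 (adjusted p = 0.22). The groups overlapped at both weeks. Without HFD316 at week 12 the differences were 1.98 to 2.07 and all 4 globin genes were called, with adjusted p from 0.0300 to 0.0495. Without HFD411 at week 16 3 of them were called, with adjusted p from 0.0255 to 0.05. At week 20 HFD livers were lower in Hba-a1 by 0.85 ± 0.25 (adjusted p = 0.119), with 4 of 5 members at an unadjusted p under 0.05 and none called. The values were 97.1 to 155 FPKM of Hba-a1 in HFD livers and 153 to 302 FPKM in CD livers, with 1 HFD liver inside the CD range.

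Alas2 gave the single weekly call in liver. At week 8 it measured 79.4, 88, 69.3 and 79.7 FPKM on CD and 61.8, 51.4, 41.8 and 60.4 FPKM on HFD, with no overlap. The difference was -0.56 ± 0.13 (SE, limma adjusted p = 0.0387), where 7.49% of genes were called, 1.33% were called lower and 3.69% had HFD groups wholly below CD. It was not called without a filter on low FPKM (adjusted p = 0.0649), with all groups in 1 fit (adjusted p = 0.123), or without CD203, CD205, CD207, CD208, HFD212 or HFD213 (adjusted p 0.0608 to 0.101). In the other 5 weeks no member was called in liver, where 0.0506% (week 4), 10.6% (week 12), 7.43% (week 16), 2.47% (week 20) and 0.837% (week 24) of genes were.

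The interaction of diet and week called 0 of 5 members in liver, against 1.46% of genes. Adjusted p was 0.255 for Alas2 and 0.367 to 0.42 for the globin genes, with 1 member, Alas2, at an unadjusted p under 0.05 and 0 called in limma without trended and robust variances. For week within HFD all 5 were called (adjusted p 0.00398 to 0.0466, 50.2% of genes called), with Hba-a1 means from 105.8 FPKM at week 24 to 1165 FPKM at week 12. Within CD only Alas2 was called (adjusted p = 0.0286, 55% of genes called), with a mean of 79.1 FPKM at week 8 and 48.6 FPKM at week 12. The call of Alas2 on CD was lost without CD203, CD205 or CD208 (adjusted p 0.0588 to 0.0807), and that on HFD without any 1 of 26 of the 48 mice (adjusted p up to 0.119).

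Diet differences in the 2 tissues were set against each other in a fit of all 96 libraries, a comparison added after the data were seen. The islet diet difference exceeded that of liver by 1.02 ± 0.37 for Hba-a1 (SE, limma adjusted p = 0.0205), 1.03 ± 0.37 for Hba-a2 (adjusted p = 0.0204), 1.03 ± 0.37 for Hbb-bs (adjusted p = 0.0194), 0.96 ± 0.38 for Hbb-bt (adjusted p = 0.0333) and 0.61 ± 0.13 for Alas2 (adjusted p = 6.40e-05). All 5 were called, where 8.42% of genes were called in that direction. Without any 1 of 7 mice Hbb-bt was not called, with adjusted p up to 0.059. Liver held more of all 5 transcripts than islets. The islet level was lower by 1.18 (Hbb-bs) to 1.31 (Hba-a1) for the globin genes and by 4.68 for Alas2 on the log2(FPKM + 1) scale, all called where 30.2% of genes were called lower. On average Ins1 and Ins2 made up most of the summed FPKM of an islet library, and the size depends on the scaling. The difference of Hba-a1 was -0.81 with both insulin genes left out of the library total and -1.99 with median-ratio scaling. Within a mouse, liver exceeded islets in the summed globin FPKM in 38 of 48 animals, at a median ratio of 2.44 and a range of 0.279 to 22. Of the 10 mice in which islets held more, 9 were on HFD, with all 4 of week 20 and 3 of week 24.

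The 4 globin genes rose and fell together from mouse to mouse. After each library was set against the mean of its diet and week, the summed α and the summed β levels correlated at Pearson r = 0.99 (Spearman rho = 0.98) in islets and r = 0.99 (rho = 0.99) in liver over 48 libraries. Both p were 1e-05 by permutation within groups, the smallest that 100000 shuffles can give, and 1.67e-05 after adjustment over the 5 relations tested here. Without the 2 mice farthest from the median r was 0.98 and 0.99, and within single weeks it was 0.95 to 1.00 in islets and 0.98 to 1.00 in liver.

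Alas2 followed the globins closely in islets and less closely in liver, a contrast that was not itself tested. In islets r was 0.93 and rho 0.92 (permutation p = 1e-05 for both, adjusted 1.67e-05), r was 0.91 without HFD316 and HFD614, and 0.91 to 0.98 in the 6 weeks taken singly. In liver r was 0.49 and rho 0.46 (permutation p = 0.00644 and 0.0051, adjusted 0.00644 and 0.0051), and 0.46 without HFD113 and HFD611. Within weeks the liver r ran from -0.03 at week 16 to 0.76 at week 24, and in exact permutation tests of 8 mice no week passed 0.05 for r, while rho did at week 24 (0.83, exact permutation p = 0.0382). In islets Alas2 stood at 0.308 to 0.742 FPKM per 100 FPKM of summed globins, a spread of 15.2% (CV). In liver it stood at 1.44 to 44.4 per 100, so that even the liver richest in globin lay above every islet library. Alb, the leading hepatocyte transcript, was at most 48.8 FPKM in islets.

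**Figure D3:**
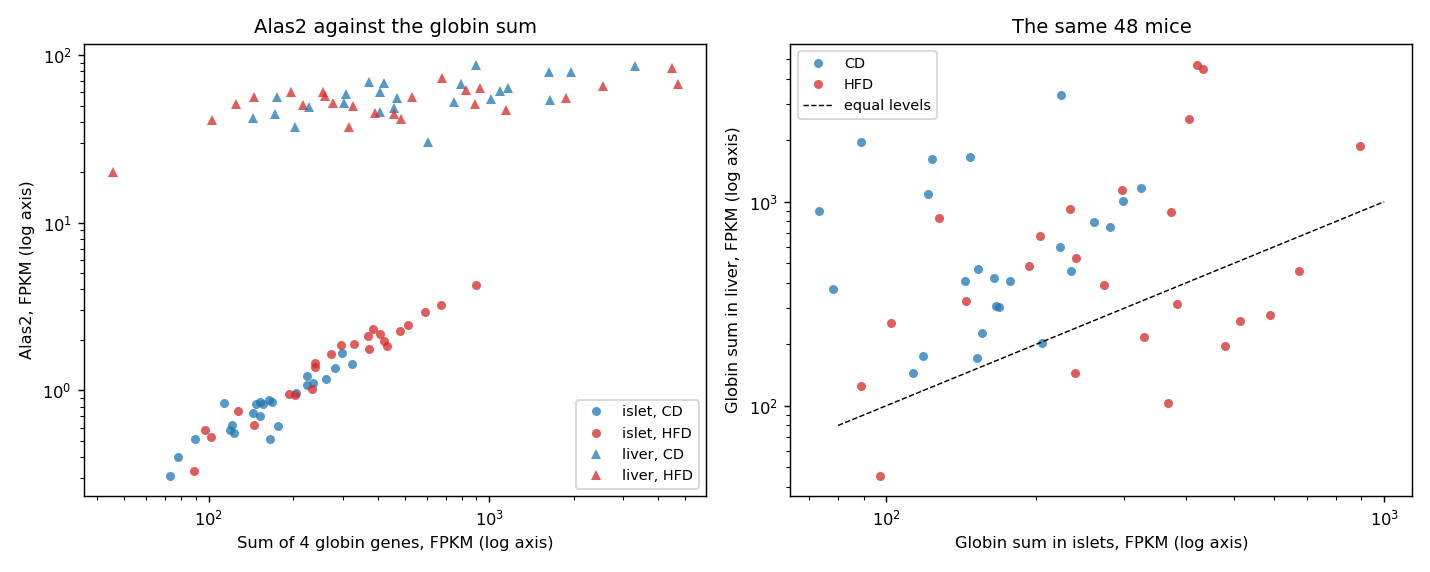
Left, Alas2 against the summed FPKM of the 4 globin genes in islets (circles) and livers (triangles), both axes logarithmic. Right, the globin sum in liver against that in islets of the same mouse, with a dashed line of equal levels. Islet points form 1 narrow diagonal band at 0.308 to 0.742 FPKM of Alas2 per 100 FPKM of globins, liver points a flat band between 20.2 and 88 FPKM, and 10 mice lie below the line of equal levels, 9 of them on HFD.

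Mice with more globin RNA in islets also tended to have more in liver. The globin sums of the 2 tissues of a mouse, each set against its group mean, correlated at r = 0.53 and rho = 0.49 over 48 mice (permutation p = 0.0056 and 0.00388, adjusted 0.00644 and 0.00485). Without HFD316 and HFD614 r was 0.42 (permutation p = 0.0205). It was 0.49 in CD mice alone (permutation p = 0.0524) and 0.55 in HFD mice alone (permutation p = 0.0432). Within weeks r ranged from -0.01 at week 16 to 0.78 at week 20, and in exact permutation tests of 8 mice no week passed 0.05 for r, while rho did at week 24 (0.83, exact permutation p = 0.0208). CD606 stood out as high in both tissues, with 123 FPKM of Hba-a1 in islets, where the other 3 mice of its group had 38.4 to 72, and 429 FPKM in liver, where they had 57.4 to 113.1.

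The genes most like the globins differed between the tissues. Likeness was the Spearman correlation, over 48 libraries and after removal of group means, with the mean of the 4 globin genes, given without a test. In liver the nearest 10 genes that are not members were Bpgm (rho = 0.78), Cd24a (0.74), Mkrn1 (0.62), Fam220a (0.58), Car2 (0.56), Celf2 (0.55), Isg20 (0.53), Ube2o (0.51), Pf4 (0.51) and Rap1gap (0.49). Bpgm makes 2,3-bisphosphoglycerate, which lowers the oxygen affinity of hemoglobin, and Car2 is a red cell carbonic anhydrase. Ube2o is a ubiquitin enzyme active in reticulocytes and Pf4 a platelet chemokine. Other reticulocyte genes of the lists used here followed the globins less or not at all, from rho -0.06 (Car1) to 0.28 (Fam46c). The platelet gene Clec1b was at 0.18. Alas2 came after the 10 nearest genes, at rho 0.46 and rank 17 of 10407 genes. In islets Alas2 itself was nearest (rho = 0.93), and the next gene, Ogfr, reached 0.51, followed by Tlcd1 (0.50), Arhgef19 (0.50), Pwwp2b (0.48), Znhit2 (0.48), Hspb6 (0.47), Xaf1 (0.46), Sap30 (0.46), Sh3glb2 (0.46) and Nupl2 (0.46). Bpgm, at 12.8 FPKM in islets on average, reached rho 0.25 there.

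**Figure D4:**
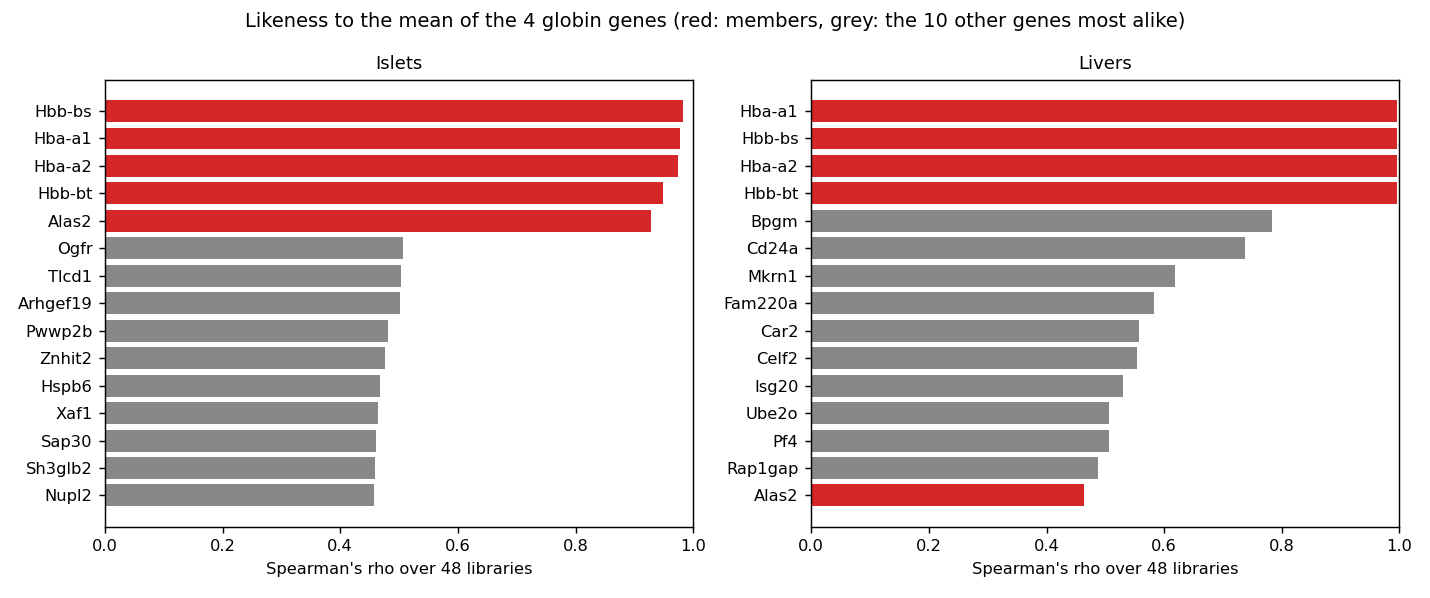
Spearman's rho of the 5 members (red) and of the 10 other genes most alike (grey) with the mean of the 4 globin genes over the 48 libraries of each tissue. In islets Alas2 stands with the globins at 0.93 and the next gene is at 0.51, and in livers Bpgm and Cd24a come next at 0.78 and 0.74 while Alas2 is at 0.46.

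The ratio of the paralogues varied with the week of the study in both tissues. Hba-a1 to Hba-a2 had a median of 2.18 in islets and 2.25 in liver at week 12, against 1.57 and 1.58 at week 16. In liver every ratio of week 12 (2.15 to 2.41) exceeded every ratio of weeks 4, 8, 16, 20 and 24 (1.34 to 2.11). Hbb-bs to Hbb-bt had a median of 6.98 in islets and 5.24 in liver at week 8, against 3.66 and 3.60 at week 16. Week accounted for 57.8% and 71.2% of the variance of the log2 ratio of the α genes in islets and liver and for 49.3% and 52.3% of that of the β genes, with permutation p of 1e-05 to 3e-05 over 48 libraries and at most 4.5e-05 after adjustment over 6 ratios. The α to β ratio was steadier, 1.06 to 1.45 in islets and 1.06 to 1.77 in liver, with 31% and 45.5% of its variance between weeks (permutation p = 0.00677 and 9e-05, adjusted 0.00677 and 0.000108). These ratios were tested after they had been seen, and the near identity of the paralogues given above applies to the first 2 of them.

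**Figure D5:**
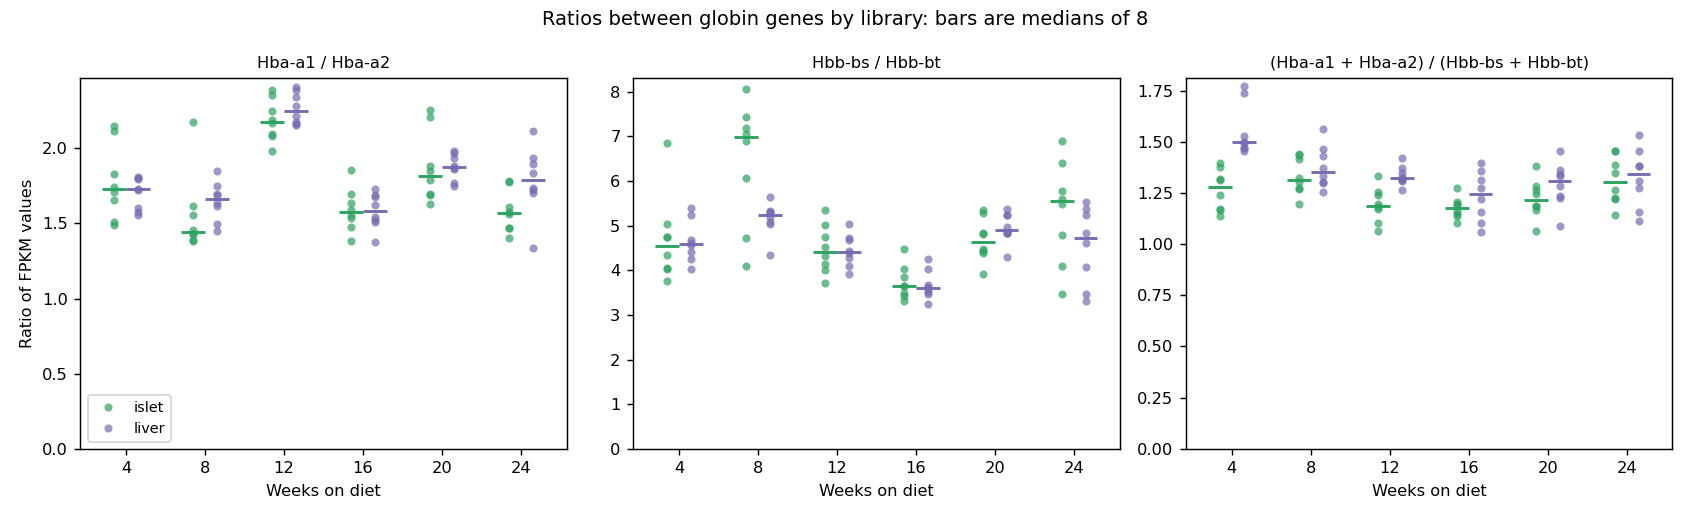
Ratios of FPKM values by library against weeks on diet, islets in green and livers in purple, with bars at the medians of 8 libraries. The Hba-a1 to Hba-a2 ratio is highest at week 12 in both tissues (medians 2.18 and 2.25) and the Hbb-bs to Hbb-bt ratio lowest at week 16 (3.66 and 3.60).

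Several defining transcripts of red cells were at or near 0. Slc4a1, the band 3 anion exchanger of the red cell membrane, was at most 0.21 FPKM in islets and 0.86 FPKM in liver, and Gata1, the erythroid master regulator, at most 0.06 and 0.08 FPKM. In islets at week 16 Slc4a1 was at 0.02 to 0.03 FPKM on CD and 0.02 to 0.08 FPKM on HFD. At week 20 it was at 0.03 to 0.09 and 0.11 to 0.16 FPKM, where 4.84% of tested genes had HFD wholly above CD. Its highest liver value was that of HFD318, a liver rich in globin. Slc4a1 lay below the filter and was not tested. Of 12 red cell membrane genes 9 stayed below 1 FPKM in every islet library and 11 in every liver library. Of the 3 and 1 tested none was called for the mean over weeks, where 38.6% and 42.6% of all genes were. The exceptions were Epb41, a membrane skeleton gene used by many cells, at a mean of 19.5 FPKM in islets and 20.7 FPKM in liver, and Rhd and Sptb, at 2.63 and 1.83 FPKM in islets. In single weeks Epb41 was called lower in HFD islets at week 8 (-0.21, limma adjusted p = 0.0471) and Rhd higher at week 12 (0.50, adjusted p = 0.00932). The rho with the globin mean in islets was -0.18 for Rhd, 0.20 for Sptb and 0.01 for Epb41. Klf1, which activates the β globin gene, was at most 0.65 FPKM in islets but at 1.21 to 7.89 FPKM in liver, where it was lower on HFD by 0.35 ± 0.08 (SE, limma adjusted p = 0.000648). Embryonic globins were not seen, with Hbb-y and Hbb-bh1 at most 0.07 FPKM. Among other globins tested, neuroglobin (Ngb) was lower in HFD islets by 0.47 ± 0.05 (adjusted p = 5.07e-10) and cytoglobin (Cygb) higher in HFD livers by 0.39 ± 0.09 (adjusted p = 0.00099), 1 of 2 and 1 of 1 tested. Of all genes 22% were called lower in islets and 35.8% higher in liver. Ngb averaged only 0.85 FPKM in islets, near the floor.

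Of 10 other genes of heme synthesis 2 were called in islets over the 6 weeks, both higher, where 16.6% of all genes were called higher and 22% lower. Uros was higher by 0.16 ± 0.05 (SE, limma adjusted p = 0.00526) and Urod by 0.09 ± 0.03 (adjusted p = 0.009), and the median of the list was 0.03 against -0.01 over all genes. None of the 10 was called at week 16 or 20. In liver 6 of 10 were called higher, where 35.8% of all genes were called higher, 6.78% lower and the median of all genes was 0.08. Among them were Uros at 0.44 ± 0.07 (adjusted p = 2.80e-06), Cpox at 0.31 ± 0.06 (adjusted p = 2.83e-05) and Alad at 0.21 ± 0.06 (adjusted p = 0.00282), and the list had a median of 0.17. Alas1, the housekeeping synthase, measured 6.85 to 12.3 FPKM in islets and 34.1 to 387 FPKM in liver, with diet differences of 0.06 (adjusted p = 0.209) and 0.20 (adjusted p = 0.493).

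Among genes that handle free hemoglobin, heme and iron some were called in both tissues. In islets 4 of 9 tested were called higher, where 16.6% of all genes were, led by the ferritin chains Fth1 at 0.25 ± 0.04 (SE, limma adjusted p = 1.78e-06) and Ftl1 at 0.25 ± 0.04 (adjusted p = 3.59e-06), with the biliverdin reductase Blvrb at 0.16 ± 0.04 (adjusted p = 0.00253), and the heme-hemopexin receptor Lrp1 was called lower by 0.29 ± 0.06 (adjusted p = 8.74e-05). 22% of all genes were called lower in islets. Hmox1, which opens the heme ring, was higher on HFD by 0.20 in islets (adjusted p = 0.0236) and by 0.68 ± 0.12 in liver (adjusted p = 1.24e-05). In liver 5 of 11 were called higher, where 35.8% of all genes were, among them Fth1 at 0.31 ± 0.06 (adjusted p = 2.39e-05) and Spic, the factor of red pulp macrophages, at 0.28 ± 0.07 (adjusted p = 0.00136), while Cd163, the hemoglobin scavenger receptor, was lower by 0.27 ± 0.08 (adjusted p = 0.00816). Hp, which binds free hemoglobin, was at 1672 to 14103 FPKM in liver and did not pass the test in either tissue (adjusted p = 0.222 and 0.293).

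Genes known from reticulocytes gave a mixed list. In islets 4 of 9 tested were called higher and 1 lower, where 16.6% and 22% of all genes were, with a median of 0.04 against -0.01 over all genes. Bpgm was higher by 0.15 ± 0.03 (SE, limma adjusted p = 0.000139) and Isg20 by 0.19 ± 0.05 (adjusted p = 0.00369), and Fam46c was lower by 0.16 ± 0.06 (adjusted p = 0.0231). In liver 6 of 11 were called higher and 1 lower, where 35.8% and 6.78% of all genes were, with a median of 0.19 against 0.08 over all genes, led by Ube2l6 at 0.46 ± 0.07 (adjusted p = 5.90e-07), Mkrn1 at 0.22 ± 0.05 (adjusted p = 0.000358) and Car2 at 0.37 ± 0.08 (adjusted p = 0.000381).

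Markers of the cells that travel or sit with blood were measured beside the islet diet difference, for which 16.6% of all genes were called higher and 22% lower over the 6 weeks. Platelet and neutrophil markers were near 0 in islets, with Ppbp at most 0.68, Pf4 at most 1.44, S100a8 at most 0.76 and S100a9 at most 0.97 FPKM. None of 13 neutrophil genes reached 1 FPKM in any islet library, and 1 of 3 platelet genes tested was called (Gp1bb, higher by 0.15 ± 0.05, SE, limma adjusted p = 0.0193). The summed FPKM of 7 endothelial markers was 127 to 163 in CD and 150 to 162 in HFD islets at week 16, and 154 to 175 and 168 to 196 at week 20, with 0 of 6 genes called at either week. At weeks 16 and 20 platelet markers summed to 4.76 to 6.37 and 5.56 to 7.44 FPKM on CD and to 4.01 to 4.86 and 6.06 to 6.81 FPKM on HFD, and macrophage markers to 6.28 to 13.9 and 6.63 to 9.10 FPKM on CD and to 8.26 to 11.3 and 8.61 to 16.1 FPKM on HFD. Of 3 macrophage genes 1 was called higher at week 16, where 3.3% of all genes were, and 0 at week 20. Of 2 platelet genes 0 were called at either week. Of 6 endothelial genes 3 were called higher at week 24, where 6.57% of all genes were. Over the 6 weeks Vwf, at a mean of only 0.73 FPKM in islets, fell by 0.48 ± 0.10 (adjusted p = 0.000148). Kdr fell by 0.11 ± 0.04 (adjusted p = 0.0326), whereas Cdh5 and Plvap were higher by 0.11 and 0.10 (adjusted p = 0.0336 and 0.0411). Lymphocyte markers fell in 2 of 5 tested (Cd79a by 0.52 ± 0.14, adjusted p = 0.00453, and Lck by 0.25 ± 0.07, adjusted p = 0.0041), and 1 of 3 macrophage markers rose (Adgre1, 0.22 ± 0.05, adjusted p = 0.00029).

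Acinar, endocrine and hepatocyte markers in islets are read against the same shares of all genes, 16.6% called higher and 22% lower. The 10 acinar markers summed to 34682 to 64437 FPKM in CD and 5686 to 18301 FPKM in HFD islets at week 16, but to 5984 to 17792 and 12896 to 31912 FPKM at week 20. CD islets thus held more at week 16, without overlap, and the groups overlapped at week 20. At week 16 8.77% of single genes had HFD wholly below CD. Of the 10 acinar markers 2 were called lower at week 16, where 5.15% of all genes were, and 0 at week 20. Over all weeks 4 of 10 were called lower, led by Amy2b at -1.37 ± 0.18 (SE, limma adjusted p = 1.43e-07). Of 8 endocrine genes 3 were called higher and 3 lower, with Ppy at -1.18 ± 0.12 (adjusted p = 1.21e-09) and Iapp at 0.35 ± 0.04 (adjusted p = 7.08e-10). Among hepatocyte genes in islets 1 of 6 was called higher and 1 lower, among erythroid regulators 2 of 3 lower. The part of these markers in the globin difference was not tested.

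In liver, where 35.8% of all genes were called higher and 6.78% lower, 4 of 7 macrophage genes were called higher on HFD, led by Cd68 at 0.93 ± 0.13 (SE, limma adjusted p = 2.27e-07) and Adgre1 at 0.66 ± 0.11 (adjusted p = 6.24e-06). S100a9 was higher by 0.40 ± 0.16 (adjusted p = 0.0351), S100a8 had a difference of 0.22 (adjusted p = 0.254), and Pf4 one of 0.25 (adjusted p = 0.0571). Among platelet genes 1 of 5, among neutrophil genes 2 of 4, among endothelial genes 1 of 7 and among lymphocyte genes 0 of 1 were called. Erythroid regulators gave 2 of 5 higher and 2 of 5 lower, hepatocyte genes 2 of 8 lower, acinar genes 0 of 9 and islet endocrine genes, present as traces, 4 of 7 lower.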

How the data were processed

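The authors deposited 1 table of gene FPKM values for the 96 libraries, rounded to 2 decimals. The authors' processing notes name HISAT2 2.0.4, Bowtie2 2.2.5, RSEM 1.1.12, DESeq2 and GRCm38.p5, with no role or order given. The deposited table also holds group means, log2 fold changes, p-values and q-values of the authors' own comparisons and cluster labels, which were not used. No read counts were held, so no counting error is given. All per-sample columns were mapped to samples by their titles.

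Values were analysed as log2(FPKM + 1) with limma 3.58.1 in R 4.3.3 (trended, robust variances) over all genes that reached 1 FPKM in 4 or more libraries of a fit, with Benjamini-Hochberg adjustment and a threshold of 0.05. Weekly fits held 8 libraries (3 or more at 1 FPKM where a mouse was left out), the fits over weeks 48 of a tissue with 12 groups, and tissue fits 96. Correlations used 100000 two-sided shuffles within diet and week, or all 576 arrangements within a week. The fits were tested on simulated data. Groups and replicates came from the sample titles, which name the mouse.

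The comparison of diet differences between tissues, the test of ratios by week and the mean without weeks 16 and 20 were added after the data were seen. The members, the 15 gene lists and their tests were chosen with earlier results of these data known. Members, defining blood and heme genes, the 10 most similar genes and up to 4 called genes of a list with a mean of at least 1 FPKM, ordered by adjusted p, are named. Some other named genes, such as Ngb and Vwf in islets, lie below that mean. Alternatives were pseudocounts, filters, scalings, variance settings, left-out mice and the mouse as a block. Promoters were read from RefSeq entries and transcripts from GENCODE vM21. Some listed genes are not reported here.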

Additional observations from a re-analysis of the deposited data

Results flagged for a closer look

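Among 120 sets of 4 mice, 7 had 1 mouse farther from the others than Dixon's 95% critical value for 4 samples allows, 5.83%, where chance flags about 1 in 20. In islets on CD at week 16, CD407 was low, with 41.8 FPKM of Hbb-bs where the others had 57.4 to 58.9 and 0.58 FPKM of Alas2 where the others had 0.83 to 0.85. At week 24, CD606 was high in both tissues, with 29.6 FPKM of Hbb-bt in islets (others 9.31 to 11.8) and 429 FPKM of Hba-a1 and 113.1 FPKM of Hbb-bt in liver (others 57.4 to 113.1 and 11.2 to 23). The liver of CD308 at week 12 had 30.4 FPKM of Alas2, below the 53.9 to 55.5 FPKM of its group. The liver of HFD611 at week 24 had 356 FPKM of Hbb-bs where the others had 15.8 to 61.7.

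Each of the 5 genes had a diet difference that was larger in islets than in liver, tested as the difference of the 2 differences in 1 limma fit of 96 libraries. The excess on the log2(FPKM + 1) scale was 1.02 for Hba-a1, 1.03 for Hba-a2, 1.03 for Hbb-bs, 0.96 for Hbb-bt and 0.61 for Alas2, as reported above with adjusted p.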

How the results depend on the processing

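The 5 calls in islets over the 6 weeks and the 5 between tissues stood under every alternative run. With the mouse as a replicate block the tissue comparison and its interaction with diet each called 5 of 5, the pairing coming from the mouse named in the titles, and the block changed no call. The 10 weekly calls in islets became 4 with a log2 fold change of at least 1 required too, 9 with a pseudocount of 0.1, 6 with all 12 groups in 1 fit, and 6 to 11 without 1 mouse. With all 12 groups in 1 fit none of the 6 fell on week 16 and at least 1 fell outside weeks 16 and 20. The 1 weekly call in liver became 0 with the fold required, with no filter on low FPKM and with all groups in 1 fit, and 0 to 5 without 1 mouse (5 without HFD316, 4 without HFD411). For the mean over weeks in liver, median-ratio scaling called 1 (Alas2, -0.23, adjusted p = 0.0496). For week on CD, counts without 1 mouse ran from 0 to 3 in islets (0 without CD203, CD205 or CD207) and 0 to 4 in liver (0 without CD203, CD205 or CD208, 4 without CD606), where limma without trended and robust variances called 2. For week on HFD in liver they ran from 3 to 5 (3 without HFD315 or HFD318), and Alas2 there was lost without any 1 of 26 mice.

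Hbb-bt lost its call for the interaction of tissue and diet without any 1 of 7 mice. The islet to liver correlation of globins was 0.49 on CD alone and 0.47, 0.65, 0.33, -0.00651, 0.78 and 0.73 within weeks 4 to 24, and that of Alas2 with globins in liver was 0.43 on HFD alone and 0.69, 0.25, 0.24, -0.0309, 0.0562 and 0.76. Uncalled weekly differences changed sign without 1 mouse for Hba-a1 in islets at week 4 (-0.0231 to 0.447) and in liver for Hba-a2 (-1.40 to 0.00637), Hbb-bs (-1.29 to 0.0467) and Hbb-bt (-1.31 to 0.104) at week 4 and Alas2 at weeks 16 (-0.0782 to 0.0363) and 24 (-0.483 to 0.0288). The causes of these shifts were not tested. Depth per library is unknown, and values near 0 FPKM are imprecise.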
